A study of Mus musculus with 6 samples.

Results

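Transcripts of the cardiac extracellular matrix were compared between the ventricles of mice that carry a miR-499 transgene and those of wild-type littermates (WT). A list of 41 genes was used, holding 14 matrix proteases and their inhibitors, 3 lysyl oxidases, 16 glycoproteins and proteoglycans, 6 basement membrane genes and 2 fibroblast markers. For each gene the probe set naming that gene alone, with the highest mean over all 6 mice, was taken, which measured 36 of the 41 genes out of 19938 genes on the array. Mmp15, Adamts2, Fbn1 and Spp1 had no probe set under their symbol in the annotation used here. The single Loxl2 probe set named more than 1 gene. The expression of these 5 genes was therefore not analysed here.

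Both groups held 3 mice, all at postnatal day 17 and with no treatment given in the labels, and each array measured total RNA from the cardiac ventricle of 1 mouse. The transgenic mice came from the line TG-17, made by injection of FVB/NCrl embryos, in which the alpha-myosin heavy chain promoter drives a fragment around the mouse miR-499 precursor. That promoter is active in cardiomyocytes, while much of the matrix is made by fibroblasts and vessel cells, and a single line cannot separate the transgene from its place of insertion. All values are log2 RMA values, in which a difference of 1 is a doubling, and with only 6 arrays every difference is imprecise.

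The transgene was checked first. Mir499 measured 5.48, 5.34 and 5.68 in the WT mice and 9.31, 9.33 and 8.87 in the TG-17 mice. It rose by 3.67 on the log2 scale (SE 0.15, limma adjusted p = 0.00772), which is 12.7-fold. The mature miRNA that this precursor gives is shown because it is what the transgene adds to the cardiomyocytes. It lies on the plus strand at chr2:155622893-155622913 of GRCm38.p6 in RefSeq, and the capitals mark its seed, bases 2 to 8.
mmu-miR-499-5p: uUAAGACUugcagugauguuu

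The matrix holds the heart cells together and carries their pull from one to the next. Fibroblasts secrete most of its collagens, fibronectin and small proteoglycans, cardiomyocytes and endothelial cells lay basement membrane on their surfaces, and metalloproteases of the Mmp and Adamts families cut these proteins under the restraint of the tissue inhibitors, the Timp proteins. In the first weeks after birth the rodent heart still builds this network, and in the stressed adult heart fibroblasts expand it.

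No measured matrix gene passed either threshold. At a log odds of differential expression (B) above 0, 0 of the 36 genes were called, against 130 of 35556 probe sets, or 0.366%, over the whole array. At a Benjamini-Hochberg adjusted p under 0.05 it was again 0 of 36, against 2 probe sets or 0.00562%. At an unadjusted p under 0.05, limma gave 4 genes with higher values in TG-17 (Adamts9, Timp3, Timp4 and Lamb1), which is 11.1% of the 36 against 6.65% of all genes. In the other direction it gave 1 gene, Fmod, or 2.78% against 8.76% of all genes. Over the whole array, genes with a mean log2 value from 9 to 11 gave 18.1% higher and 3.68% lower. From 11 to 16 it was 16.3% and 2.21%. Of the 36 matrix genes, 17 lay in the first of these ranges and 9 in the second. With each array centred on its median, the matrix genes gave 10 higher and 0 lower. Over all probe sets the share at that p, both directions together, went from 15.5% to 17.2%. The median log2 fold change of all probe sets went from -0.014 to 0.037. That share was not split by direction, so it gives no background for the 10 higher alone.

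The differences were small. The median log2 fold change of the 36 genes was 0.041, with a range from -0.27 to 0.40, beside a median of -0.018 over all 19938 genes. For 32 of the 36 the estimate lay within 1.2-fold in either direction, the others being Adamts9, Timp4, Timp3 and Fmod. The 95% interval lay wholly within 1.5-fold for 34 genes (94.4%, against 97.0% of all genes) and wholly within 1.2-fold for 22. The median standard error was 0.067 on the log2 scale, beside 0.071 over all genes.

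**Figure D1:**
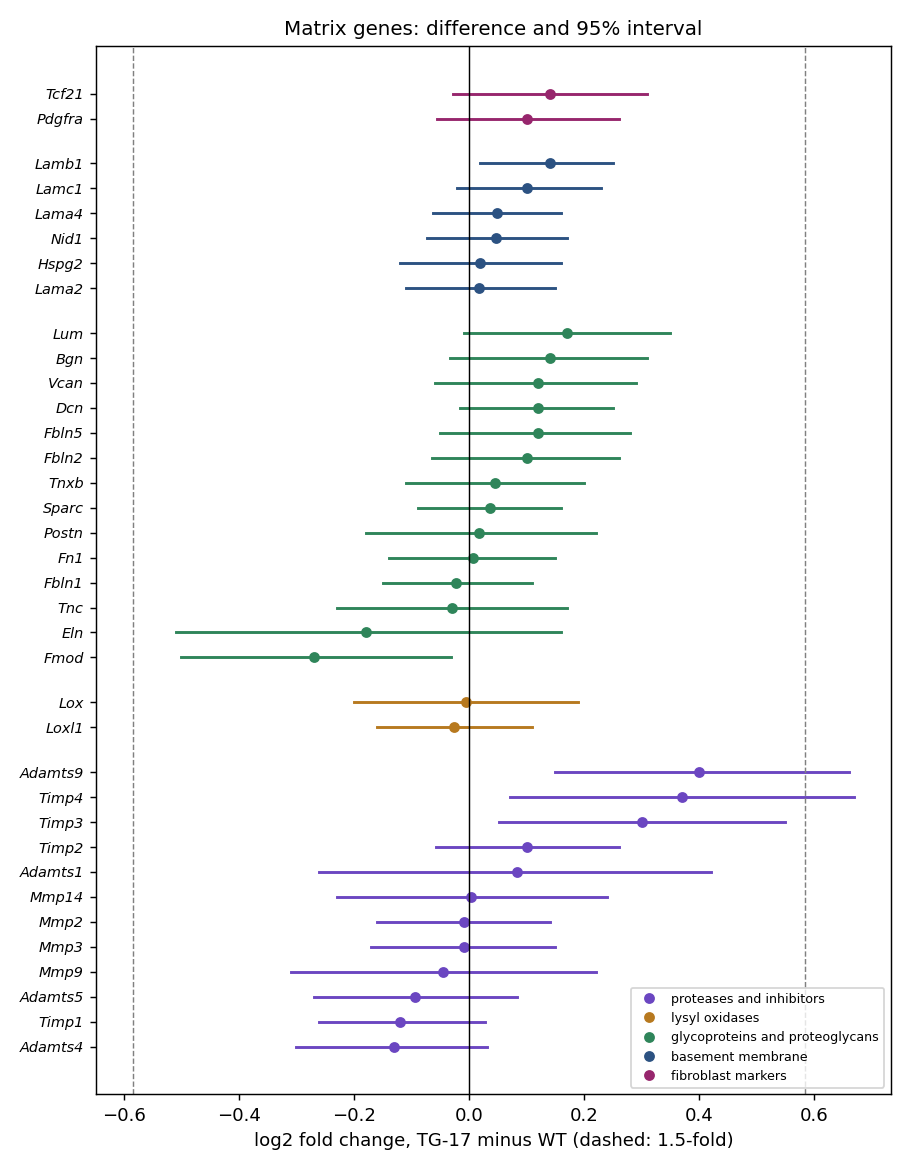
Log2 fold change, TG-17 minus WT, of the 36 measured genes on the horizontal axis, ordered within their 5 subgroups. Points are limma estimates from 3 mice a group, bars are 95% intervals and dashed lines mark 1.5-fold. The intervals of Adamts9, Timp3, Timp4, Lamb1 and Fmod leave out 0, and only those of Adamts9 and Timp4 reach past a dashed line.

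Counted by mice, every TG-17 value lay above every WT value for 10 of the 36 genes, or 27.8% against 12.2% of all genes. The reverse held for 0 of the 36, against 13.6% of all genes. Over all genes these shares followed the signal of the probe set. Of those with a mean log2 value from 9 to 11, 33.1% had every TG-17 mouse above every WT mouse, and from 11 to 16 it was 36.9%, whereas it was 11.9% from 7 to 9 and 2.87% below 7. The matrix genes were too few in each range to show an order of their own. Every TG-17 mouse was above every WT mouse for 5 of the 9 genes from 11 to 16, 3 of the 17 from 9 to 11, 2 of the 4 from 7 to 9 (Timp4 and Tcf21) and 0 of the 6 below 7. The median log2 fold change moved the same way over all genes, from -0.06 below 7 to 0.052 between 9 and 11 and 0.055 above 11. How far this trend enters the differences of the matrix genes was not tested.

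**Figure D2:**
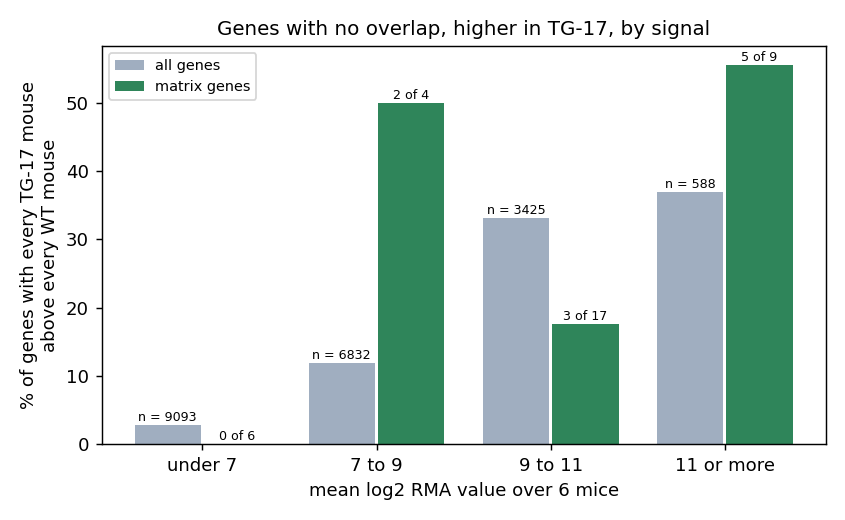
Percent of genes with every TG-17 mouse above every WT mouse (vertical axis, bars from 0) by the mean log2 RMA value over 6 mice (horizontal axis), for all genes in grey and for the 36 matrix genes in green, with the number of genes over each bar. The grey bars climb from 2.87% to 36.9%, and the green bars stand for 0 of 6, 2 of 4, 3 of 17 and 5 of 9 genes.

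The tissue carried the markers of heart muscle in both groups. The median of all probe sets ran from 6.93 to 6.95 in WT and from 6.89 to 6.91 in TG-17, and array pairs correlated at 0.9903 to 0.9937. Mean levels of the 8 cardiomyocyte markers were 13.48 to 13.50 in WT and 13.50 to 13.51 in TG-17, and those of 9 fibroblast markers 10.09 to 10.17 and 10.11 to 10.15. The 6 endothelial markers gave 10.60 to 10.66 and 10.64 to 10.65. The 4 atrial markers gave 9.10 to 9.30 in WT and 8.72 to 8.77 in TG-17, with lower means in all 4. All 4 were lower at an unadjusted p under 0.05 by limma, against 8.76% of all genes. Myl4 (-0.66) and Myl7 (-0.64) also passed B above 0, as did 0.366% of all probe sets. The 7 smooth muscle and pericyte markers gave 10.09 to 10.18 and 9.98 to 10.03, with lower means in 6 of them, 2 at an unadjusted p under 0.05, and a higher mean in Rgs5, by 0.092. For 5 epicardial or mesothelial markers it was 7.06 to 7.15 and 6.96 to 7.09, with lower means in 4, 1 of them (20.0%) at that p. For 8 leukocyte markers it was 7.24 to 7.28 and 7.22 to 7.27. At that p 1 leukocyte marker was higher and 1 lower, 12.5% each, against 6.65% and 8.76% of all genes. Olfactory receptor genes, which the ventricle is not known to use, had a 95th percentile of 6.35, and the matrix genes under it were Mmp3 and Mmp9.

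Among the proteases and inhibitors, 12 of 14 genes were measured. Of these, 3 (25.0%, against 6.65% of all genes) had higher values in TG-17 at an unadjusted p under 0.05, 0 had lower ones (against 8.76%), and none passed B above 0. In the signal range of Adamts9 and Timp3, from 9 to 11, 18.1% of all genes were higher at that p. In the range of Timp4, from 7 to 9, it was 6.5%. Among the 12 genes the means of 6 were higher and of 6 lower, with a median log2 fold change of -0.0023. The 3 genes with the largest differences were one secreted protease, Adamts9, and the inhibitors Timp4 and Timp3.

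Adamts9, a secreted metalloprotease that cleaves versican and aggrecan, measured 10.27, 10.51 and 10.62 in the WT mice and 10.78, 10.84 and 10.99 in the TG-17 mice. The groups did not overlap. The log2 fold change was 0.40 (SE 0.11, 95% interval 0.15 to 0.66), or 1.32-fold, with an unadjusted p of 0.0084 by limma and an adjusted p of 0.234. It was the one matrix gene covered by several probe sets, 6 in all. TG-17 means were higher in all 6, by 0.15 to 0.40 with a median of 0.31, and 5 of the 6 were without overlap and at an unadjusted p under 0.05. In the exception TG-17 mouse 3 measured 10.70 and mice 1 and 2 gave 10.31 and 10.28, against 10.22 to 10.31 in WT. The 6 probe sets share the same 6 RNA samples and are not replicates.

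**Figure D3:**
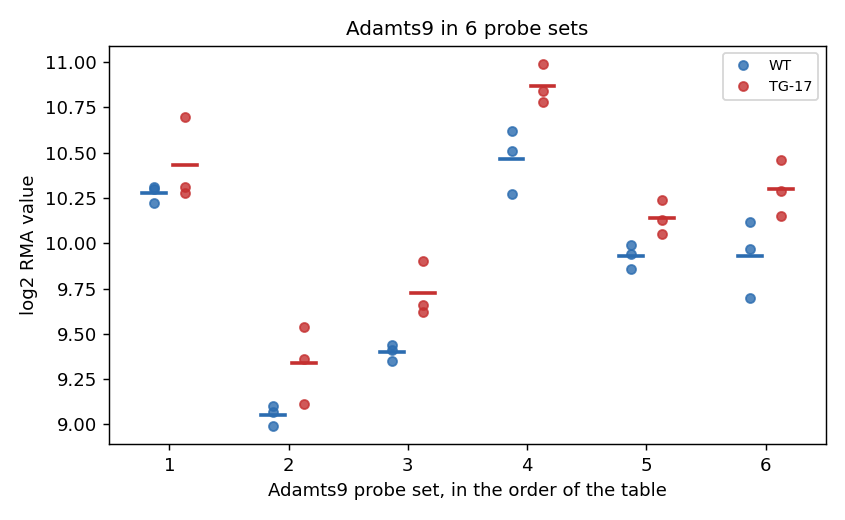
Log2 RMA value (vertical axis) of the 6 Adamts9 probe sets (horizontal axis) in 3 WT mice in blue and 3 TG-17 mice in red, with lines at the group means. Probe set 4 is the one used for the gene, with means of 10.47 and 10.87. Red lies wholly above blue in 5 probe sets and overlaps it in probe set 1.

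Timp4, an inhibitor of matrix metalloproteases known for its expression in the heart, measured 7.03, 7.28 and 7.44 in WT and 7.48, 7.63 and 7.76 in TG-17. All TG-17 mice lay above all WT mice, WT mouse 3 and TG-17 mouse 1 being close together. Its log2 fold change was 0.37 (SE 0.12, 95% interval 0.072 to 0.67), with an unadjusted p of 0.0227 and an adjusted p of 0.271 by limma. Timp4 lies inside Syn2, which codes for synapsin, on the opposite strand. Syn2 itself measured 7.16, 6.95 and 7.13 in WT and 7.57, 7.83 and 7.56 in TG-17, a difference of 0.57 (SE 0.10, B = -0.30). Its part in the Timp4 signal was not tested.

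Timp3, the inhibitor that binds to the matrix and also restrains Adam and Adamts proteases, measured 10.31, 10.30 and 10.45 in WT and 10.50, 10.61 and 10.86 in TG-17. Again the groups did not overlap, and TG-17 mouse 3 stood highest. The log2 fold change was 0.30 (SE 0.10, 95% interval 0.052 to 0.55), with an unadjusted p of 0.0252 and an adjusted p of 0.276 by limma. Timp3 lies inside Syn3, whose log2 fold change was -0.058. Leaving out WT mouse 1 or 2 took Timp3 past an unadjusted p of 0.05, and Timp4 went past it without WT mouse 1, TG-17 mouse 2 or TG-17 mouse 3. Adamts9 kept an unadjusted p under 0.05 in 15 of 15 alternatives.

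The other inhibitors differed in sign and did not pass the test. Timp2, which also takes part in the activation of pro-Mmp2, had a mean of 9.85 ± 0.0846 in WT and 9.95 ± 0.0564 in TG-17 (SD, n = 3), a log2 fold change of 0.10 with an interval from -0.058 to 0.26. Timp1, the inhibitor induced in injured tissue, had 6.52 ± 0.0568 and 6.40 ± 0.0622 (SD, n = 3), and a log2 fold change of -0.12 (-0.26 to 0.027). Its mean over all mice, 6.46, was close to the 6.35 of the olfactory receptor genes. Below 7, only 30.3% of all genes had a higher mean in TG-17. Timp1 lies inside Syn1 on the opposite strand, and Syn1 differed by -0.0058.

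The classic matrix metalloproteases had estimates close to 0. Mmp2, the gelatinase made by fibroblasts, had a log2 fold change of -0.0085 with a 95% interval from -0.16 to 0.14. Mmp14, the membrane-bound protease that activates it, had 0.0039 (-0.23 to 0.24). Mmp9, the gelatinase of leukocytes, and Mmp3, stromelysin, were dim, and their differences of -0.046 and -0.0086 say little about these transcripts. Among the aggrecanases and versicanases, Adamts1 had 0.083 (-0.26 to 0.42), Adamts5 -0.094 (-0.27 to 0.083) and Adamts4 -0.13 (-0.30 to 0.032). Adamts4, at a mean of 6.51, was also in the range below 7, where the median of all genes was -0.06. Adamts1 varied more among the WT mice, from 9.51 to 10.05, than among the TG-17 mice, from 9.79 to 9.97.

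Of the 3 lysyl oxidases, the copper enzymes that cross-link collagen and elastin, 2 were measured. Lox gave 6.71, 6.80 and 6.81 in WT and 6.63, 6.88 and 6.80 in TG-17, a log2 fold change of -0.0048 (-0.20 to 0.19). Loxl1 gave 9.10, 9.06 and 9.19 in WT and 9.10, 9.13 and 9.05 in TG-17, a log2 fold change of -0.027 (-0.16 to 0.11). The groups overlapped throughout for both enzymes.

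Among the glycoproteins and proteoglycans, 14 of 16 genes were measured. The means of 10 were higher in TG-17 and of 4 lower, 0 had higher values at an unadjusted p under 0.05 (against 6.65% of all genes), 1 had lower ones (7.14% against 8.76%), and none passed B above 0. The median log2 fold change was 0.041. Small leucine-rich proteoglycans, which bind collagen fibrils and set their width and spacing, stood at both ends of the range.

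Decorin, Dcn, measured 13.14, 13.12 and 13.07 in WT and 13.17, 13.29 and 13.21 in TG-17. Lumican, Lum, measured 11.19, 11.07 and 11.13 in WT and 11.19, 11.30 and 11.41 in TG-17. Biglycan, Bgn, measured 11.13, 10.97 and 11.17 in WT and 11.27, 11.18 and 11.23 in TG-17. For these 3 genes every TG-17 mouse was above every WT mouse, though for Lum and Bgn the nearest pair almost touched. Log2 fold changes were 0.12 for Dcn (-0.016 to 0.25), 0.17 for Lum (-0.0081 to 0.35) and 0.14 for Bgn (-0.033 to 0.31), and each interval held 0. After a second quantile normalization Lum gave 0.076 and Bgn 0.059, and Bgn gave 0.076 without WT mouse 2.

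Fibromodulin, Fmod, a relative of lumican that also binds collagen, ran the other way. It measured 7.89, 7.66 and 8.0 in WT and 7.67, 7.54 and 7.54 in TG-17, and the groups overlapped through WT mouse 2 and TG-17 mouse 1. The log2 fold change was -0.27 (SE 0.10, 95% interval -0.50 to -0.032), with an unadjusted p of 0.0321 and an adjusted p of 0.292 by limma. That p went past 0.05 when each array was centred on its median, and without WT mouse 1, WT mouse 3, TG-17 mouse 2 or TG-17 mouse 3.

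Other members of the same proteoglycan family were on the wider gene lists, and this grouping was made after the values were seen. Of 9 family members measured, 4 of them in the list above, the means of 7 were higher in TG-17 and of 2 lower, and 6 had every TG-17 mouse above every WT mouse. Over all genes 44.4% had a higher mean and 12.2% no overlap in that direction, but from 9 to 11 in signal it was 72.1% and 33.1%, and from 11 to 16 it was 75.0% and 36.9%. From 7 to 9 it was 46.7% and 11.9%, and below 7 it was 30.3% and 2.87%. As the grouping followed the values, nothing particular to the family can be read from these counts. Asporin, Aspn, differed by 0.20, osteoglycin, Ogn, by 0.20, osteomodulin, Omd, by 0.18 and Prelp by 0.13, while Podn, podocan, differed by -0.065. Omd was dim, at a mean of 5.11, and Fmod and Podn lay in the range from 7 to 9. None of the 9 passed B above 0.

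Elastin, Eln, the protein of elastic fibres in arteries and valves, had the widest interval of the glycoproteins. It measured 10.29, 10.19 and 10.52 in WT and 10.23, 10.33 and 9.90 in TG-17, so that TG-17 mouse 3 was low and the other two lay within the WT range. The log2 fold change was -0.18 (-0.51 to 0.16), and it was -0.05 without TG-17 mouse 3 and -0.081 without WT mouse 3. Of the markers of smooth muscle, a source of elastin, Acta2 differed by -0.22, Myh11 by -0.31 and Tagln by -0.18. Of the pericyte markers, Cspg4 differed by -0.16, Kcnj8 by -0.088, Pdgfrb by -0.075 and Rgs5 by 0.092. The part of these cells in the Eln value was not tested. In bulk ventricle, fewer cells of a type and less RNA per cell cannot be told apart. The elastic fibre proteins Fbln5 and Fbln2 had log2 fold changes of 0.12 (-0.05 to 0.28) and 0.10 (-0.065 to 0.26), and Fbln1 had -0.023.

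The proteins of provisional and remodelling matrix were near 0. Fibronectin, Fn1, the main adhesive glycoprotein of such matrix, had 10.42 ± 0.081 in WT and 10.43 ± 0.0184 in TG-17 (SD, n = 3), with an interval for the log2 fold change from -0.14 to 0.15. Periostin, Postn, a gene of activated fibroblasts, had 10.68 ± 0.142 and 10.70 ± 0.0513 (SD, n = 3), with an interval from -0.18 to 0.22. Tenascin C, Tnc, had 6.89 ± 0.15 and 6.86 ± 0.0247 (SD, n = 3), with an interval from -0.23 to 0.17. Every one of these intervals lies within 1.2-fold, or 0.26 on the log2 scale. Sparc, a collagen-binding glycoprotein, differed by 0.037 (-0.089 to 0.16), and tenascin X, Tnxb, by 0.045 (-0.11 to 0.20). Versican, Vcan, the hyaluronan-binding proteoglycan that Adamts proteases cut, differed by 0.12 (-0.059 to 0.29).

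All 6 basement membrane genes were measured, and all 6 had a higher mean in TG-17, and the median difference among them was 0.047 on the log2 scale, turning to -0.027 when the arrays were quantile normalized again. The 6 had mean log2 values over 10, in the range where 72.1% of all genes (from 9 to 11) or 75.0% (from 11 to 16) also had a higher mean in TG-17. At an unadjusted p under 0.05 it was 1 of the 6 with higher values, against 6.65% of all genes and 16.3% of those from 11 to 16, and 0 at B above 0.

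Lamb1, the beta chain of the common laminins, measured 11.36, 11.36 and 11.41 in WT and 11.52, 11.48 and 11.53 in TG-17. The gap between the groups was wider than the range within either. Its log2 fold change was 0.14 (SE 0.048, 95% interval 0.019 to 0.25), or 1.1-fold, with an unadjusted p of 0.0292 and an adjusted p of 0.286 by limma. After the second quantile normalization it was 0.058, past an unadjusted p of 0.05. The p also went past 0.05 with the mouse number as a block and without WT mouse 1, WT mouse 2, TG-17 mouse 1 or TG-17 mouse 3.

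Lamc1, the gamma chain found with it, measured 11.32, 11.34 and 11.42 in WT and 11.46, 11.45 and 11.47 in TG-17, again without overlap. Its log2 fold change was 0.10 (-0.021 to 0.23), and 0.021 after the second quantile normalization. Lama4, the alpha chain of vessel laminins, measured 10.67, 10.67 and 10.68 in WT and 10.70, 10.72 and 10.74 in TG-17, and these groups did not overlap either, at a log2 fold change of only 0.048 (-0.063 to 0.16). The alpha chain of muscle laminins, Lama2, differed by 0.018 (-0.11 to 0.15). Nidogen, Nid1, which links laminin to type IV collagen, differed by 0.047, and perlecan, Hspg2, the heparan sulfate proteoglycan, by 0.019.

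Both fibroblast markers had higher means in TG-17 and neither passed the test. Pdgfra, the receptor used to identify cardiac fibroblasts, measured 10.26, 10.31 and 10.25 in WT and 10.45, 10.42 and 10.27 in TG-17, with TG-17 mouse 3 inside the WT range. Tcf21, the transcription factor of the fibroblast lineage, measured 8.67, 8.70 and 8.62 in WT and 8.92, 8.79 and 8.71 in TG-17, and here the groups did not overlap. The log2 fold changes were 0.10 (-0.055 to 0.26) for Pdgfra and 0.14 (-0.028 to 0.31) for Tcf21. Pdgfra gave 0.034 after the second quantile normalization, and Tcf21 gave 0.084 without TG-17 mouse 1. Over the 9 fibroblast markers that include them, the means of 3 were higher and of 6 lower, with a median of -0.015. Col1a1 and Col1a2, the chains of type I collagen, differed by -0.054 and -0.047, and Dpt, dermatopontin, by -0.033. None of the 9 had an unadjusted p under 0.05.

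**Figure D4:**
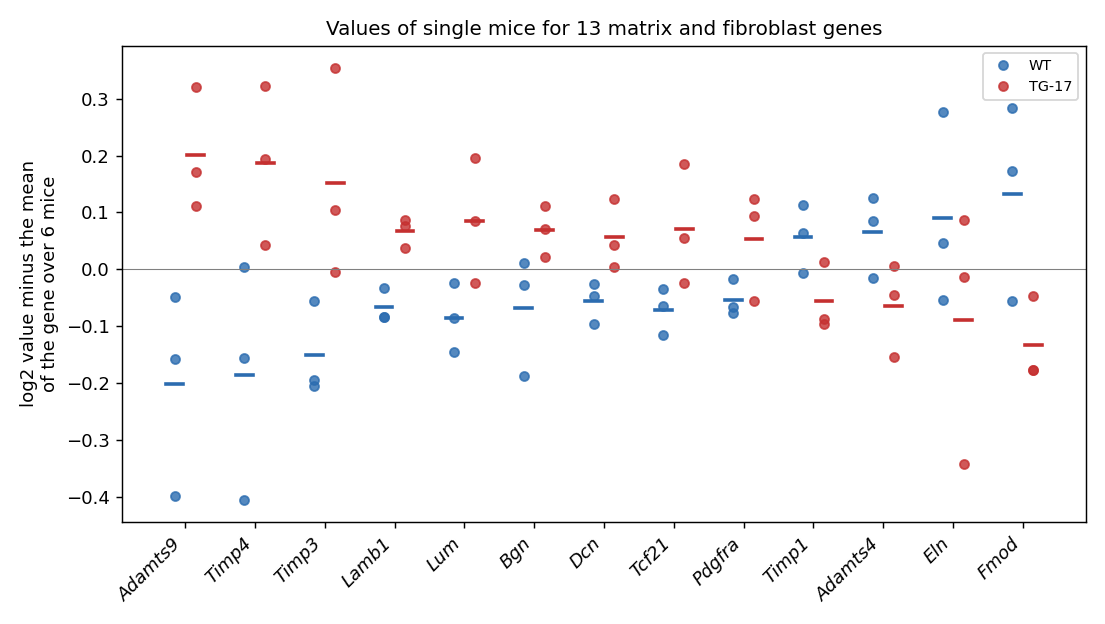
Log2 value of each mouse minus the mean of the gene over all 6 mice (vertical axis) for 13 genes (horizontal axis), WT in blue and TG-17 in red, with lines at the group means. The groups are apart for Adamts9, Timp4, Timp3, Lamb1, Lum, Bgn, Dcn and Tcf21, narrowly so for Lum and Bgn, and overlap for Pdgfra, Timp1, Adamts4, Eln and Fmod.

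The subgroups were also set side by side as the median deviation of their genes in each mouse from the gene means. For basement membrane it was -0.046, -0.046 and 0.012 in WT and 0.042, 0.029 and 0.036 in TG-17. For glycoproteins and proteoglycans it was -0.026, -0.064 and 0.032 in WT and 0.017, 0.0087 and 0.033 in TG-17. For proteases and inhibitors it was -0.015, -0.03 and 0.016 in WT and 0.014, 0.015 and 0.11 in TG-17. WT mouse 3 stood above the other WT mice in all 3 subgroups. The TG-17 mice lay above all WT mice for basement membrane alone among the 3. No test was made between subgroups.

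The rest of the matrix gene set was read from further lists, and at B above 0 it gave 0 genes in each. Of 35 other proteases and inhibitors, 1 (2.86%) had higher and 4 (11.4%) lower values in TG-17 at an unadjusted p under 0.05, against 6.65% and 8.76% of all genes, with the smallest p for Mmp13, a collagenase at a dim signal (-0.27, unadjusted p = 0.0138 by limma), and Plau, urokinase (-0.34, unadjusted p = 0.0179 by limma). Of 34 other glycoproteins and proteoglycans, 9 had higher and 5 lower values, led by Smoc2, a calcium-binding matrix protein (0.20, unadjusted p = 0.00534 by limma), and Cilp (-0.23, unadjusted p = 0.0128 by limma). These were 26.5% and 14.7% of that list, against the same 6.65% and 8.76% of all genes, and 18.1% and 3.68% of genes with a signal from 9 to 11.

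Of 8 other basement membrane genes, 0 had higher and 2 (25.0%) lower values, the laminin chains Lama1 (-0.16, at a dim signal) and Lama5 (-0.16). The median of this list was -0.048. Among 24 matrix receptors, 4 (16.7%) had higher and 2 (8.33%) lower values. All genes gave 6.65% and 8.76%, and genes with a signal from 9 to 11 gave 18.1% and 3.68%. The receptors were led by Cd44, the hyaluronan receptor (0.27, unadjusted p = 0.00546 by limma), and Itga5, the fibronectin receptor chain (0.34, unadjusted p = 0.00579 by limma). For both receptors all TG-17 mice were above all WT mice. Of 16 collagens, 1 (6.25%) had higher values, Col6a3 (0.15), and 0 lower, with a median of -0.012. One relative of Adamts9 among the 35 other proteases and inhibitors was picked after its values were seen. Adamts3, which trims procollagen, was 1 of the 4 lower ones there, at -0.18 (B = -2.97) in its brightest probe set. It had lower means in 15 of its 16 probe sets, with a median of -0.28. Of the 16, 2 passed B above 0, as did 0.366% of all probe sets. These probe sets share the same 6 RNA samples and are not replicates.

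Promoter sequences were read for the 4 genes with higher values at an unadjusted p under 0.05, as the 250 bases before the RefSeq start of each gene in GRCm38.p6. They are shown on the strand of the gene, and capitals mark matches to the GC box or to the Egr motif, searched on both strands. Timp3 is at chr10:86300162-86300411 on the plus strand, Timp4 at chr6:115252206-115252455 on the minus strand, Adamts9 at chr6:92943535-92943784 on the minus strand and Lamb1 at chr12:31265043-31265292 on the plus strand.
Timp3: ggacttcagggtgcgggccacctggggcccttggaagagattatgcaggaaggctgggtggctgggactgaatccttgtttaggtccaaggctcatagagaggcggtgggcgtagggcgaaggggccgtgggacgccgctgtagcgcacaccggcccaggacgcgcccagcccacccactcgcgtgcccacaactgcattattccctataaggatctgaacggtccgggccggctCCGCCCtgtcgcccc
Timp4: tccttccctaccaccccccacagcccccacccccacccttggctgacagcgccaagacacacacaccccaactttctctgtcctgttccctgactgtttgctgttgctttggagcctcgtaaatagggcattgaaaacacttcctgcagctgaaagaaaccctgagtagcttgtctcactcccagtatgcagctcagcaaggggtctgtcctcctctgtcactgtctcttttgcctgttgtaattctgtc
Adamts9: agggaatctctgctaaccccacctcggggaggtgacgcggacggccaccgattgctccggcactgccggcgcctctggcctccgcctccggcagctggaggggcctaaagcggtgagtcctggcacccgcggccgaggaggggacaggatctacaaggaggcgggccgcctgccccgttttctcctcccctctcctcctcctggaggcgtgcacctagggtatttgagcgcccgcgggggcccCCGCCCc
Lamb1: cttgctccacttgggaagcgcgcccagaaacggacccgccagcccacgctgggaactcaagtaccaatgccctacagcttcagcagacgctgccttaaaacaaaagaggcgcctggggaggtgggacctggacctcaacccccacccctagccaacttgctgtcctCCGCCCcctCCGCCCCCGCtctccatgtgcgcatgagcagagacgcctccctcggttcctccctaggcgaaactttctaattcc

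Timp3 and Adamts9 each hold 1 GC box, GGGCGG, close to the start, Lamb1 holds 2 with an Egr match, GCGNGGGCG, that overlaps one of them, and Timp4 holds none. Of the 41 genes, 28 had a promoter sequence. These include Adamts2, Fbn1, Mmp15 and Spp1, whose expression was not measured here. The GC box was in 18 of them (64.3%), against 35.4% of the promoters of 27025 genes. The Egr motif was in 4 (14.3% against 5.33%), namely Fbln1, Lamb1, Mmp14 and Tnc. The AP-1 motif TGANTCA was in 2 (7.14% against 7.82%), Mmp3 and Tnxb, the CArG box in 1 (3.57% against 1.62%), Lama2, and TATAAA in 5 (17.9% against 14.3%). The Egr motif contains most of a GC box, so these matches are not separate counts, and a match in this window is a run of letters and not a measured site. Of the genes with an Egr match, Lamb1 differed by 0.14, and Fbln1, Mmp14 and Tnc by -0.023, 0.0039 and -0.03.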

How the data were processed

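RNA of 6 ventricles, 3 WT and 3 TG-17, was measured on Affymetrix mouse gene arrays. The deposited values are log2 intensities that the authors made with RMA, per the labels, and all 35556 probe sets entered the fit with no further normalization. Symbols came from the platform annotation, where 21789 probe sets named 1 gene, 1621 several and 12146 were not listed. The methods of the study name limma, and limma 3.58.1 in R 4.3.3 was fitted to every probe set with genotype as the only term and 0.01 as the share of probe sets expected to change. P-values were adjusted by Benjamini-Hochberg over all probe sets, intervals are 95%, and the fit was checked on simulated data. Whether the mice of a group come from separate litters is not given. In limma the variance of each probe set is drawn toward that of all probe sets. Standard errors, intervals and p-values thus combine both, and are not the spread between these mice alone. Lama4, for example, had SDs of 0.00972 in WT and 0.018 in TG-17 (n = 3) but an SE of 0.046.

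The genes and lists were chosen with earlier results of these data known. Values of every mouse are printed for genes at an unadjusted p under 0.05, without overlap, or among the 2 largest differences of a subgroup, and for Pdgfra and Tcf21; from the wider lists, those at B above 0 or else up to 2 of smallest p. Alternatives were a filter at a mean of 5, annotated probe sets only, median centring, repeated quantile normalization, weights per array, a trend of variance with intensity, robust moderation, a block on mouse number, each mouse left out, an expected share of 0.05 and, for Adamts9, the mean of its probe sets.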

Additional observations from a re-analysis of the deposited data

How the results depend on the processing

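No matrix gene was called at B above 0 or at an adjusted p under 0.05 under any alternative run, while over all probe sets the count at B above 0, 130 in the report, ran from 29 to 112 with 1 mouse left out and was 69 with the replicate block, 287 with an intensity trend and 714 with an assumed share of 0.05. The count with higher values at an unadjusted p under 0.05, 4 in the report, was 10 with each array centred on its median, 8 with an intensity trend and 1 to 5 with 1 mouse left out (1 without WT mouse 1, 2 without WT mouse 2). The count with lower values, 1 in the report, was 0 with centring and 0 to 1 with 1 mouse left out. Over all probe sets the share at that p, both directions together, was 15.5% in the report. It was 17.2% with centring and 16.9% with an intensity trend. Centring moved the median of all probe sets from -0.014 to 0.037, and the medians to 0.092 for all matrix genes, 0.049 for proteases and inhibitors, 0.092 for glycoproteins and proteoglycans, and 0.098 for basement membrane. Basement membrane gave -0.027 after the second quantile normalization, and the glycoprotein median ran from 0.0081 to 0.083 with 1 mouse left out. Deviations of mice with the same number correlated at 0.0236, -0.000438 and 0.0565, and 3 of 6 mice were closest to their own number. With so few mice this cannot decide whether the numbers pair the samples. With the replicate block the median of all matrix genes stayed at 0.041 and the counts were 3 higher and 1 lower. The unadjusted p by limma was then 0.00277 for Timp4, 0.00289 for Adamts9, 0.0108 for Timp3 and 0.0358 for Fmod, while Lamb1 went past 0.05. The cause of these shifts was not tested.

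Of 540 log2 fold changes of single genes under alternatives, 47 turned sign, in 17 genes none of which differed by more than 0.083. With centring, Mmp2 gave 0.043, Mmp3 0.043, Mmp9 0.0052, Lox 0.046, Loxl1 0.024, Fbln1 0.028 and Tnc 0.021. With the second quantile normalization, Mmp3 gave 0.039, Mmp9 0.0072, Mmp14 -0.051, Lox 0.047, Fn1 -0.067, Sparc -0.0067, Tnc 0.023, Tnxb -0.014, Postn -0.055, Nid1 -0.025, Lama2 -0.07, Lama4 -0.028 and Hspg2 -0.07. Without a change of sign it gave 0.041 for Timp2, -0.067 for Timp1, -0.08 for Adamts4 and 0.036 for Fbln2. Array weights gave 0.024 for Lox. With 1 mouse left out, values ran from -0.035 to 0.038 for Mmp2, -0.062 to 0.02 for Mmp3, -0.12 to 0.046 for Mmp9, -0.075 to 0.065 for Mmp14, -0.062 to 0.21 for Adamts1, -0.059 to 0.067 for Lox, -0.054 to 0.0073 for Loxl1, -0.027 to 0.052 for Fn1, -0.05 to 0.0016 for Fbln1, -0.10 to 0.046 for Tnc, -0.002 to 0.071 for Tnxb, -0.043 to 0.10 for Postn, -0.0075 to 0.049 for Lama2 and -0.016 to 0.051 for Hspg2. Signals near those of olfactory receptor genes limit what Mmp3 and Mmp9 can show.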
